A study of Homo sapiens with 4 samples.

Results

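WNT ligands are secreted, lipid-modified signalling proteins. The 7 ligand genes described here are WNT9A, WNT7A, WNT7B, WNT5A, WNT5B, WNT10A and WNT4, out of 19 human WNT genes and 34500 measured genes. They were picked by name for their level in untreated MCF10A cells and for their difference after TGF-β1 within each replicate number. Their levels and treatment differences are therefore given as a description. No p-value of that contrast is given for them. How many passed a threshold is stated beside the share over all genes, with nothing read from it. All 7 passed the filter on low counts, as did 3 of the other 12 WNT genes, in a set of 14774 genes kept.

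MCF10A cells derive from human breast epithelium and grow without limit in culture while not forming tumours. All cells stably carried a scramble shRNA, a hairpin without an intended target, and grew in medium with EGF, cholera toxin, insulin, hydrocortisone and horse serum. One group received TGF-β1 at 5 ng/ml for 1.5 h (2 libraries), and the control group was taken at 0 h (2 libraries). No untreated library was taken at 1.5 h. TGF-β1 therefore cannot be told apart from the time that passed or from handling. The labels do not say whether the shRNA line was 1 clone, nor what a replicate number marks, so the spread between libraries may be partly technical.

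A WNT protein is acylated in the endoplasmic reticulum by PORCN, carried to the surface by WLS, and bound by Frizzled receptors on the same or a neighbouring cell. With LRP5 or LRP6 as co-receptor this stabilises β-catenin, which then acts with TCF and LEF factors on target genes. Other pairings, known best for WNT5A with ROR receptors, act on cell shape and movement without β-catenin. In the mammary gland WNT4 is known as a signal downstream of progesterone, and WNT10A and WNT10B belong to the ligands that mark early mammary placodes in mouse embryos.

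Each of the 7 genes encodes the stretch whose serine carries the lipid, the feature on which secretion and receptor binding of a WNT protein depend. The stretch is shown because it lets the 7 mRNAs be compared at the same site, where their bases and codons differ. The sequences come from the main GENCODE release 29 transcript of each gene, 5′ to 3′, with the serine codon in capitals.

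WNT9A: tgccacggcgtgTCAggctcatgc
WNT7A: tgccacggcgtgTCAggctcgtgc
WNT7B: tgccacggcgtgTCTggctcctgc
WNT5A: tgccatggggtgTCCggctcatgt
WNT5B: tgccacggcgtcTCGgggtcctgc
WNT10A: tgccacggcacgTCAggcagctgc
WNT4: tgccacggggtgTCAggctcctgt

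Over these 24 bases, 19 (WNT10A) to 23 (WNT7A) were the same as in WNT9A. The stretch lies in the last exon in each gene, for WNT9A at chr1:227921944-227921967 on the minus strand of GRCh38. Over the whole coding sequence, WNT9A was 62.9% to 64.6% identical to the other 6. The closest pairs were WNT5A with WNT5B at 80.4% and WNT7A with WNT7B at 77.8%. A read is assigned by short matches, so the share of each transcript's 31-base words that also occur in another gene was counted. It was 0.355% for WNT9A, 0.0814% for WNT5A, 0.232% for WNT5B, 0.598% for WNT7A, 0% for WNT10A, 1.52% for WNT4 and 4.99% for WNT7B. WNT7B is thus the member whose counts have most room to be shared with other genes.

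The 4 libraries held 35737659 to 40792300 estimated counts. SMAD7, an inhibitory SMAD and early TGF-β target, was at 129 and 100.1 CPM (counts scaled to library size by edgeR) in TGF-β1 replicates 1 and 2, against 8.58 and 8.27 CPM in the controls. SKIL, another early target, was at 181 and 187 CPM against 56.4 and 43.7 CPM. Replicate 2 differed from replicate 1 more than TGF-β1 differed from control. The median absolute log2 difference over genes was 0.27 between numbers in TGF-β1 libraries and 0.28 in controls, against 0.10 and 0.09 between TGF-β1 and control libraries of numbers 1 and 2. All 7 basal mammary markers, such as KRT5 and TP63, were kept, as were 4 of 7 luminal, 3 of 6 fibroblast and 3 of 5 blood and endothelial markers. Of the luminal markers, KRT18 was at 432 and 347 TPM in TGF-β1 libraries and 454 and 348 TPM in controls, KRT8 at 223 and 161 against 236 and 146 TPM, and ESR1 and FOXA1 were kept as well. PGR, the progesterone receptor, had at most 1 count in a library, and KRT19 and ELF5 did not pass the filter. The summed TPM of the fibroblast markers was 28.5 and 26.2 in TGF-β1 libraries against 21.4 and 19.8 in controls, most of it from DCN and COL1A1. PDGFRA, which marks fibroblasts, had 3 to 5 counts in each library. The part of these markers in the ligand values was not tested.

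Untreated cells expressed few WNT genes, and all at low levels. Levels are compared between genes in TPM, which corrects for transcript length. In bulk RNA, fewer cells that express a ligand and less RNA per cell cannot be told apart. WNT5A was the highest, at 3.40 and 4.59 TPM in control replicates 1 and 2. Next came WNT10B, which is not among the 7, at 3.37 and 2.23 TPM, and then WNT9A at 2.97 and 1.38 TPM. The control ranges of WNT10B and WNT9A overlapped, and both lay below that of WNT5A. In control replicate 1 WNT5A and WNT10B were nearly tied. There the main transcript WNT5A-201 alone was at 3.28 TPM, below the gene sum of WNT10B. WNT7A, WNT5B and WNT10A followed at means of 0.785 ± 0.770, 0.750 ± 0.530 and 0.709 ± 0.099 TPM (SD, n = 2 libraries here and below). Their control ranges overlapped. WNT2B, outside the 7, averaged 0.603 TPM, WNT4 0.371 ± 0.0488 TPM and WNT7B 0.220 ± 0.119 TPM. The range of WNT2B overlapped those of WNT7A, WNT5B and WNT10A, that of WNT4 overlapped those of WNT7A and WNT5B, and that of WNT7B overlapped that of WNT7A. The order among these 6 genes is thus only partly set. Short transcripts with few counts also enter these values. In control replicate 1 a transcript of 590 bases with 4 counts made 50.3% of the TPM of WNT10A. The main transcript of WNT10A alone was at 0.223 and 0.587 TPM in control replicates 1 and 2. For WNT4 a transcript of 680 bases made 64.9% and 53.4% of the TPM there, from 3.30 and 3.07 counts. The small SDs of WNT10A and WNT4 thus do not show how steady their main transcripts were. Each of the remaining WNT genes averaged at most 0.103 TPM in controls, and WNT1 and WNT2 had 0 counts in all 4 libraries, which allows up to 3.69 counts per library at 95% confidence.

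**Figure D1:**
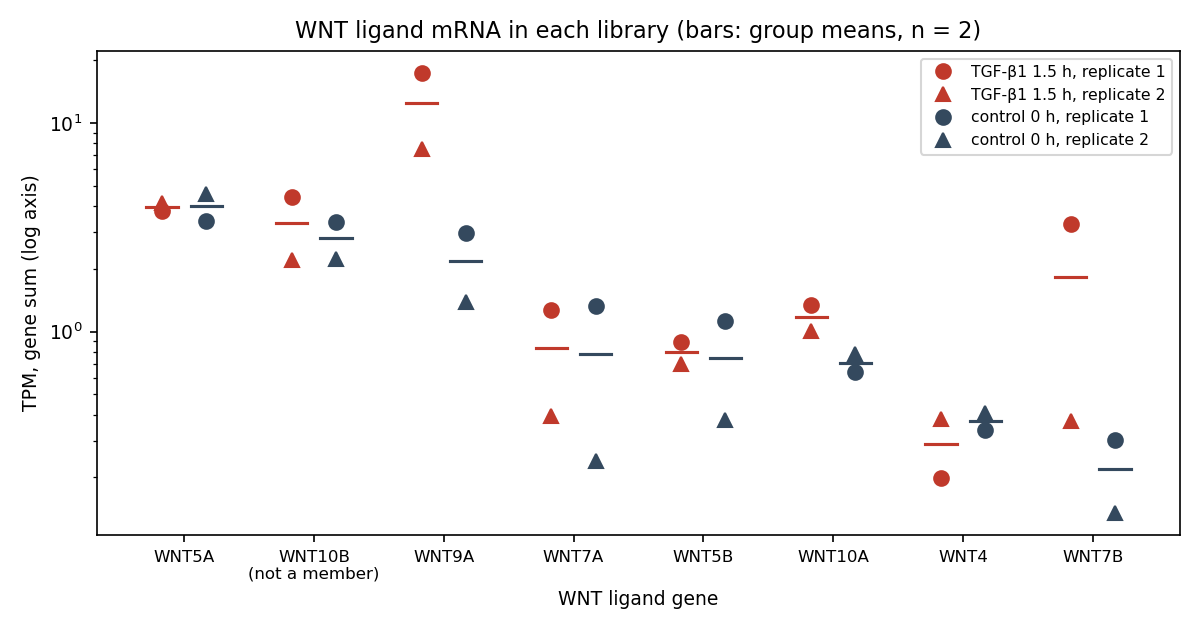
Gene-level TPM (log axis) of the 7 WNT ligands and WNT10B in each library, with TGF-β1 at 1.5 h in red and controls in dark blue. Circles are replicate 1, triangles replicate 2, and short bars the means of 2 libraries. WNT9A at 17.4 and 7.53 TPM lies above both its controls, while WNT5A stays between 3.40 and 4.59 TPM in all 4 libraries.

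WNT9A, a ligand known for its role in joint formation in mouse limbs, was the leading WNT mRNA after TGF-β1. It stood at 49.2 and 22.8 CPM in TGF-β1 replicates 1 and 2, against 8.41 and 3.99 CPM in control replicates 1 and 2. Both treated libraries lay above both controls. The ratio of TGF-β1 to control was 5.85 within number 1 and 5.72 within number 2, log2 differences of 2.55 and 2.52, and in both groups the replicate numbered 2 held less WNT9A. The edgeR log2 fold change over the 4 libraries was 2.54 ± 0.56 (SE), a 5.80-fold difference. Leaving out TGF-β1 replicate 1 gave 1.87 and leaving out its replicate 2 gave 2.99. For the controls these values were 3.18 with replicate 1 left out and 2.10 with replicate 2 left out. With 1 library left out, the groups no longer hold the same numbers. The difference between numbers therefore enters such values, here and below. In TPM the values were 17.4 and 7.53 against 2.97 and 1.38. WNT9A has a single annotated transcript in these tables, WNT9A-201, with 4 exons and 3971 bases, so its value holds no shift between annotated isoforms.

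WNT7B, which acts in lung and kidney development in mice, was also higher in both TGF-β1 libraries, from a much smaller base. It had 204 and 39 counts in TGF-β1 replicates 1 and 2 and 29 and 14 counts in control replicates 1 and 2. The 95% Poisson intervals for replicate 2, which cover counting error only, were 27.7 to 53.3 counts after TGF-β1 and 7.65 to 23.5 counts in the control. Its CPM ratio was 7.15 within number 1 and 2.96 within number 2. TGF-β1 replicate 1 stood alone above the other 3 libraries, at 5.22 CPM against 1.13 CPM in TGF-β1 replicate 2 and 0.730 and 0.382 CPM in the controls. The edgeR log2 fold change was 2.50 ± 0.89 (SE) and 1.01 without TGF-β1 replicate 1. The transcripts differed as well. In TGF-β1 replicate 1 the short transcript WNT7B-203 (714 bases) took 26.2 counts, which made 50.4% of the gene's TPM, and it had 0 counts in the other 3 libraries. The long transcript WNT7B-201 alone was at 1.63 and 0.375 TPM after TGF-β1 against 0.217 and 0.135 TPM in controls.

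WNT10A, a ligand of skin appendages and teeth, had 49 and 51 counts in TGF-β1 replicates 1 and 2, against 21 and 41 in controls. The groups did not overlap in CPM (1.25 and 1.48 against 0.529 and 1.12), but the difference within number 2 lay inside the counting error. There the 95% Poisson intervals were 38.0 to 67.1 counts after TGF-β1 and 29.4 to 55.6 counts in the control. The log2 differences were 1.25 within number 1 and 0.40 within number 2. The edgeR value was 0.73 ± 0.49 (SE), and 1.36 without control replicate 2 or 0.29 without control replicate 1.

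WNT5A, the best known ligand of the β-catenin-independent branch, had close levels in the treated and control libraries of each number. It had 14.7 and 19.4 CPM after TGF-β1 and 14.7 and 20.6 CPM in controls. The log2 differences were 0.0002 within number 1 and -0.09 within number 2, and the edgeR value was -0.05 ± 0.25 (SE). At 575 to 756 counts per library it was the most precisely counted member among those with no clear difference. The transcript WNT5A-201 took 98.2% to 99.8% of its counts.

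WNT7A, WNT5B and WNT4 had groups that overlapped. WNT7A, a relative of WNT7B, had 3.66 and 1.22 CPM after TGF-β1 and 3.83 and 0.710 CPM in controls, so its 2 high libraries were those numbered 1. It had 143 and 42 counts after TGF-β1 and 152 and 26 counts in controls, and their 95% Poisson intervals overlapped within both numbers. Its log2 differences were -0.07 within number 1 and 0.78 within number 2, and its edgeR value of 0.10 ± 0.97 (SE) was 1.78 when control replicate 1 was left out and -0.91 when the treated replicate 1 was. WNT5B, the close relative of WNT5A, had 41 and 28 counts after TGF-β1 and 69 and 21 counts in controls. For WNT5B too, the 95% Poisson intervals overlapped within both numbers. Its log2 differences were -0.73 and 0.50 within numbers 1 and 2, and its edgeR value of -0.31 ± 0.63 (SE) became 0.70 without control replicate 1. In that control WNT5B-202 took 52.0% of the counts, and it had 0 counts in the other 3 libraries. WNT4 had 15 and 19 counts after TGF-β1 and 16 and 22 counts in controls. Their 95% Poisson intervals overlapped within both numbers. The edgeR log2 fold change was -0.10 ± 0.46 (SE), and the direction turned when control replicate 2 (0.21) or TGF-β1 replicate 1 (0.13) was left out.

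**Figure D2:**
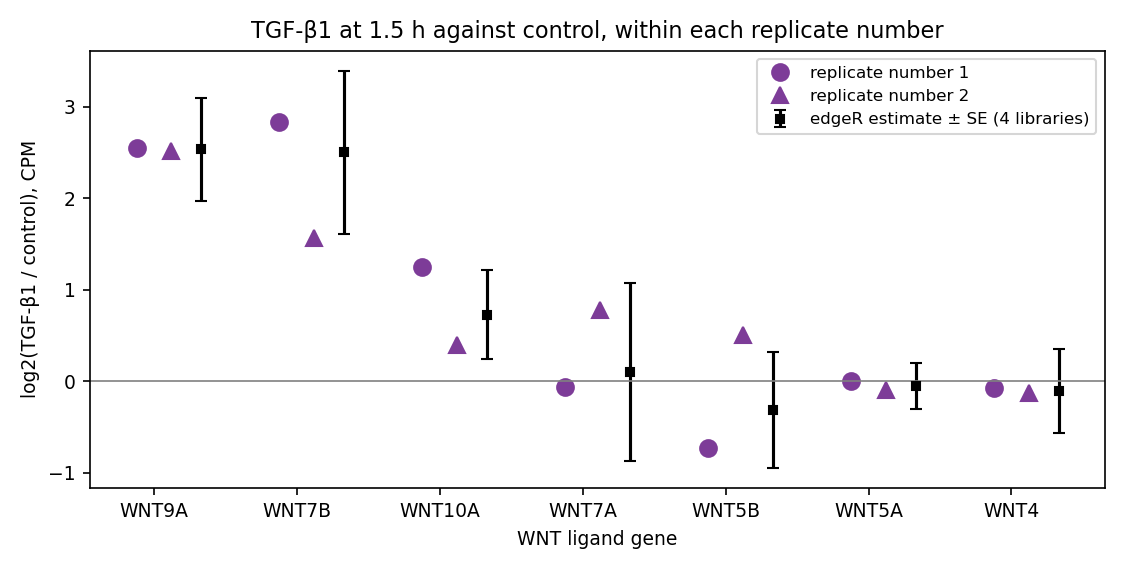
The log2 ratio of TGF-β1 at 1.5 h to control for each WNT ligand, in CPM, within replicate number 1 (circles) and number 2 (triangles), with the edgeR estimate over 4 libraries ± SE (black squares). WNT9A gives 2.55 and 2.52 in the 2 numbers, WNT7B 2.84 and 1.56, and WNT7A and WNT5B change sign between numbers. For WNT7A and WNT5B, the 95% Poisson intervals of treated and control counts overlap within both numbers.

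In all, 3 of 7 members (WNT9A, WNT7B and WNT10A) had both TGF-β1 libraries above both controls, against 7.87% of the 14774 genes kept, and 0 of 7 had both below, against 8.34%. At least a doubling within both numbers was seen in 2 of 7 (WNT9A and WNT7B), against 0.738% of genes kept. By edgeR's quasi-likelihood test with Benjamini-Hochberg adjustment, 0 of 7 members and 0% of all genes were called at an adjusted p under 0.05. DESeq2's Wald test called 1 of 7, WNT9A, against 0.458% of the genes it tested (0.422% higher and 0.0356% lower). With the replicate number as a block, edgeR called 2 of 7, WNT9A and WNT7B, both higher, against 2.27% of genes (1.75% higher and 0.514% lower). Without adjustment, 2 members (WNT9A and WNT7B) had an edgeR p under 0.05, against 1.73% of genes. Since the members were picked on this contrast, nothing is read from these counts. The median edgeR log2 fold change was 0.10 over the 7 members and -0.01 over all genes kept.

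The make-up of the ligand pool differed between the groups. The 19 WNT genes summed to 33.8 and 18.3 TPM after TGF-β1 and 14.1 and 11.4 TPM in controls. WNT9A made up 51.6% and 41.2% of that sum in TGF-β1 replicates 1 and 2, against 21.1% and 12.1% in the controls. WNT5A made up 11.2% and 22.6% after TGF-β1, against 24.1% and 40.2% in the controls, with its own TPM between 3.40 and 4.59. WNT10B held 13.1% and 12.1% after TGF-β1 and 23.9% and 19.5% in controls. WNT9A was the highest WNT gene in both TGF-β1 libraries, and WNT5A in both controls. In control replicate 1 that lead was small, at 3.40 TPM for WNT5A against 3.37 TPM for WNT10B. The order below WNT9A differed between the TGF-β1 libraries. In replicate 1 WNT10B (4.42 TPM) lay above WNT5A (3.796 TPM) and WNT7B (3.30 TPM). In replicate 2 WNT5A (4.12 TPM) lay above WNT10B (2.21 TPM), and WNT7B, at 0.375 TPM, was below WNT10A, WNT5B, WNT2B, WNT3, WNT7A and WNT4. For WNT4, at 0.381 TPM in that library, 57.8% came from a transcript of 680 bases with 3 counts.

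**Figure D3:**
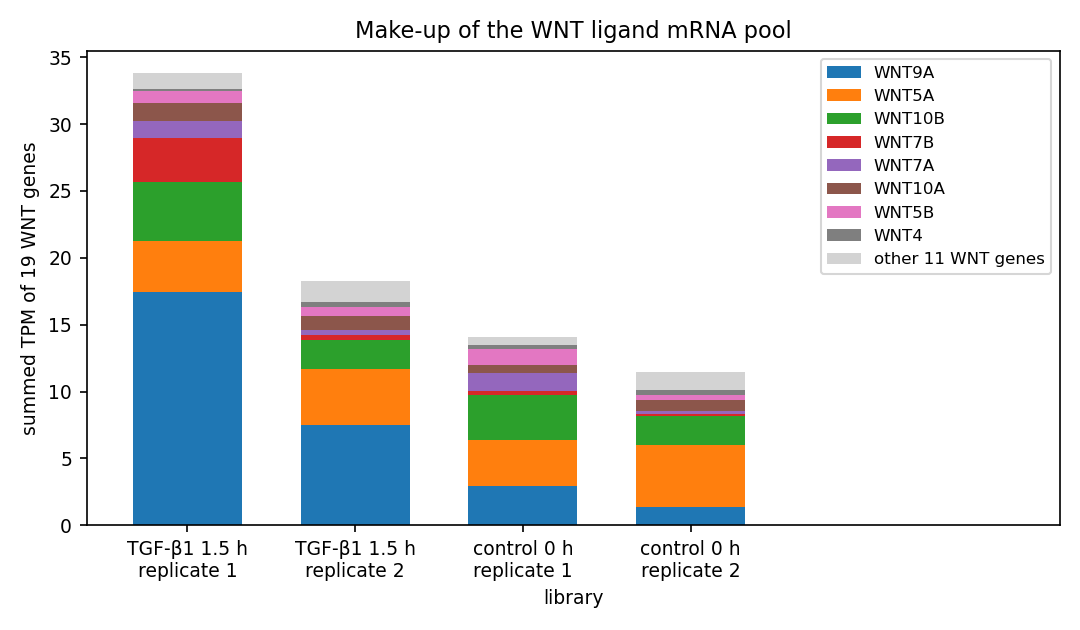
Summed TPM of the 19 human WNT genes in each library, stacked by gene, with the 11 least expressed or unnamed genes in light grey. The bars reach 33.8 and 18.3 TPM after TGF-β1 and 14.1 and 11.4 TPM in controls, and the WNT9A segment is 17.4, 7.53, 2.97 and 1.38 TPM from left to right.

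Among the 12 WNT genes outside the 7, 9 had under 10 counts in every library. WNT10B had 270 and 121 counts after TGF-β1 and 208 and 120 counts in controls, a log2 fold change of 0.29 ± 0.45 (SE). WNT2B had 71 and 115 counts against 71 and 119. WNT3, a ligand that acts through β-catenin, had 23 and 51 counts after TGF-β1 and 0 and 14 counts in controls. Both treated libraries lay above both controls for WNT3, and its edgeR log2 fold change of 2.43 ± 1.37 (SE) did not pass (edgeR adjusted p = 1.00, DESeq2 adjusted p = 1.00). No fold is given within number 1, where the control had 0 counts. As this edgeR fit called 0% of all genes, not passing it is no result about WNT3.

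The libraries numbered 2 and 1 differed in several members. The choice of genes did not use this difference itself, but it used the TGF-β1 difference within each number. How well those 2 differences match sets the error of the test below. Its p-values for the members are therefore not independent of the choice. The test set the 2 libraries numbered 2 against the 2 numbered 1 with treatment as a covariate (edgeR's quasi-likelihood test, Benjamini-Hochberg adjustment). WNT7A had the largest of these differences and was lower in number 2, at 1.22 and 0.710 CPM in the TGF-β1 and control libraries against 3.66 and 3.83 CPM in number 1 (log2 fold change -1.98 ± 0.27 SE, edgeR adjusted p = 0.00134). WNT7B had a log2 fold change of -1.77 ± 0.35 (SE, edgeR adjusted p = 0.00638) and WNT9A one of -1.10 ± 0.08 (SE, edgeR adjusted p = 0.000117). WNT5A was higher in number 2, at 19.4 and 20.6 CPM against 14.7 and 14.7 CPM (log2 fold change 0.44 ± 0.08 SE, edgeR adjusted p = 0.00472). WNT5B (-0.99 ± 0.37), WNT10A (0.61 ± 0.33) and WNT4 (0.55 ± 0.39) did not pass (edgeR adjusted p = 0.0707, 0.172 and 0.290).

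So 3 of 7 members were lower in number 2, against 25% of genes kept, and 1 of 7 was higher, against 19.9%. The test called 44.9% of all genes, and nothing particular to WNT ligands is read from these counts. DESeq2 called 25.6% of genes (9.32% higher and 16.3% lower) and 3 members, WNT9A, WNT7A and WNT7B, all lower, and not WNT5A (DESeq2 adjusted p = 0.0749). Without treatment as a covariate the edgeR calls of WNT9A and WNT7B ended. The edgeR ratio of number 2 to number 1 was 0.468 for WNT9A, beside TGF-β1 ratios of 5.72 within number 2 and 5.85 within number 1.

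**Figure D4:**
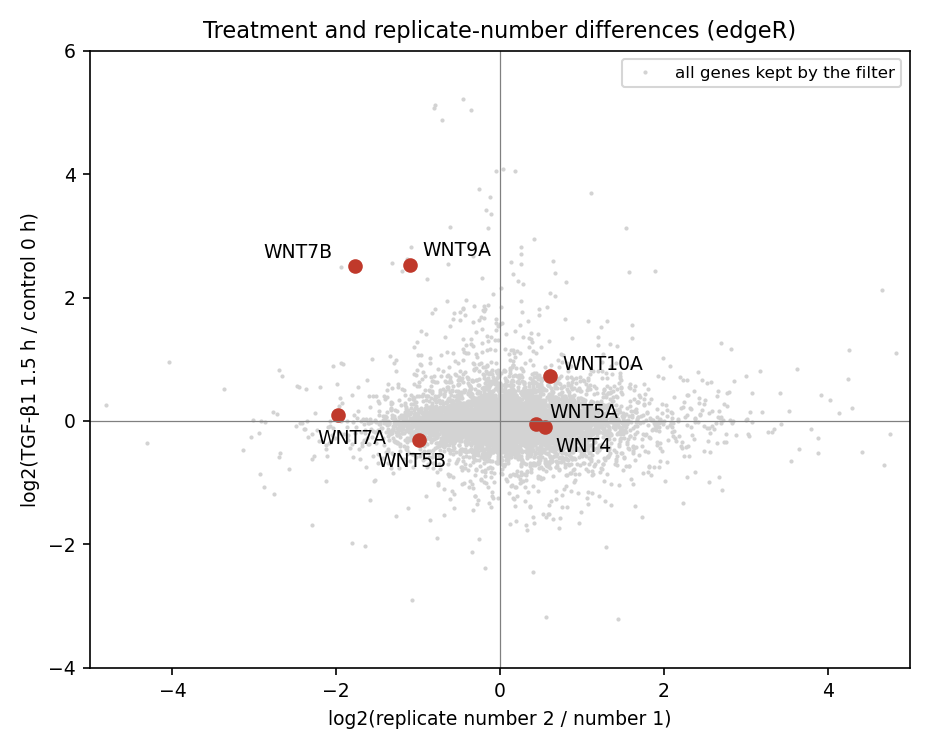
Each grey point is 1 of the 14774 genes kept, with the edgeR log2 ratio of libraries numbered 2 to those numbered 1 across and of TGF-β1 to control up (18 genes lie outside the axes). The 7 WNT ligands are in red. WNT9A (-1.10, 2.54) and WNT7B (-1.77, 2.50) lie high and to the left, and the other 5 lie between -0.31 and 0.73 on the treatment axis.

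WNT9A lies on chromosome 1 from 227918656 to 227947898 on the minus strand. Of the 4 measured genes within 100 kb of it, 0 passed the filter. WNT3A, its neighbour at a gap of 59153 bases on the other strand, had 0 and 6 counts after TGF-β1 and 0 and 4 counts in controls. PRSS38, a protease gene on the other side, had 2 and 2 counts against 0 and 0. The 2 pseudogenes in between had 0 counts. Only 4 of the 5 annotated neighbours in this window had values, and at so few counts these cannot show a shared change. WNT9A was thus the only measured gene there with high counts.

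The 250 bases before the RefSeq start of WNT9A are shown because this gene had the highest level and the steadiest difference after TGF-β1. They run over chr1:227947933-227948182 on the minus strand (GRCh38.p14), 5′ to 3′, with each GGCGC or its reverse GCGCC, the letters of a GC-rich SMAD motif, in capitals.

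WNT9A promoter: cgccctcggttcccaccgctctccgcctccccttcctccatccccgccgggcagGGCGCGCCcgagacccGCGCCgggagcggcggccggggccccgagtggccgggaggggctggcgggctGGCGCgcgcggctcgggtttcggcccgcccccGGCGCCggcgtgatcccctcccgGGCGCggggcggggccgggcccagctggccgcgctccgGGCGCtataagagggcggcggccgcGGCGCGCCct

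The window is 84.4% G and C, against a median of 58% over 35116 RefSeq promoter windows. It holds 10 matches to GGCGC over both strands, overlaps counted, and 0.39% of windows hold as many. At least 1 match is in 44.5% of windows. The window holds no CAGAC, the short SMAD motif present on either strand in 38% of windows, and no TGAGTCA, the AP-1 motif present in 4.2%. Promoter entries were found for 6 of 7 members, all but WNT7B. GGCGC matches numbered 6 in WNT7A, 3 in WNT10A and 2 in WNT4, with 2 and 0 in the 2 starts of WNT5A and 0 in both starts of WNT5B. Whether the matches relate to the TGF-β1 differences was not tested. These are matches of letters and not measured binding sites.

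The protein-coding genes whose profile over the 4 libraries was most like that of WNT9A were sought among 13867 genes, by the Euclidean distance of mean-centred log2 CPM with a prior count of 3. The nearest was IL11, a cytokine of the IL-6 family, at a distance of 0.17, with 6.14 and 2.87 CPM after TGF-β1 and 0.856 and 0.410 CPM in controls. PDGFB, a platelet-derived growth factor chain, followed at 0.20, with 5.91 and 2.32 CPM against 0.982 and 0.410 CPM. DLX1, a homeobox factor (0.49), the locus AL049557.1 (0.74) and GADD45B, a stress-response protein (0.76), came next. WNT7B ranked 9 on the same list at 0.88, and WNT5A, at 2.98, ranked 11331. With 4 libraries, treatment and replicate number both enter this distance.

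Of the other genes of the WNT pathway, none was called at 1.5 h by edgeR or DESeq2 without the replicate number as a block. The edgeR fit without the block called 0% of all genes, SMAD7 included. Not passing it, here and below, is therefore no result about a gene. Lists by role held 68 genes other than the 7, of which 41 were kept. Of the 41, edgeR called 0, against 0% of all genes, and DESeq2 called 0, against 0.458%. At an unadjusted edgeR p under 0.05 there were 0, against 1.73%. With the block, edgeR called FZD7 higher and DKK1 lower, against 1.75% of genes higher and 0.514% lower. DESeq2 with the block called 0 pathway genes and 245 of 15539 genes in all. Nothing particular to the pathway is read from these counts. The median log2 fold change of the 41 was 0.03, against -0.01 over all genes kept. These lists were drawn up with earlier results of these data known. Both TGF-β1 libraries lay above both controls in 5 of the 41 and below in 2, against 7.87% and 8.34% of all genes kept.

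For the machinery that makes and releases the ligands, PORCN was at 15.5 and 13.4 TPM after TGF-β1 and 17.1 and 12.9 TPM in controls, a log2 fold change of -0.11 ± 0.18 (SE). WLS was at 25.7 and 28.6 TPM against 28.9 and 31.2 TPM. TRABD2A, a protease that cleaves WNT proteins, was at 24.4 and 19.3 TPM against 26.4 and 16.98 TPM. NOTUM, which removes the lipid, had at most 4 counts in a library.

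Of 16 receptors and co-receptors, 14 were kept, with a median log2 fold change of 0.04. FZD6 at 86.1 and 50.4 TPM after TGF-β1 and 84.8 and 50.9 TPM in controls, and RYK at 63.6 and 65.8 against 66.7 and 65.9 TPM, were the highest receptors. FZD7 had the largest difference of the list, at 4.31 and 2.15 TPM against 2.21 and 1.44 TPM (log2 fold change 0.84 ± 0.41 SE). It did not pass without the block (edgeR adjusted p = 1.00) and was called higher by edgeR with it. ROR2, a receptor for WNT5A, had at most 2 counts in a library, while its relative ROR1 had 414 to 437.

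Of 10 secreted antagonists, only SFRP1 and DKK1 were kept. SFRP1, which binds WNT proteins directly, was at 171 and 87.2 TPM after TGF-β1 and 175 and 67.1 TPM in controls. DKK1, which blocks LRP5 and LRP6, was at 80.7 and 90.8 TPM against 95.4 and 107 TPM (log2 fold change -0.27 ± 0.17 SE). It did not pass without the block (edgeR adjusted p = 1.00) and was called lower by edgeR with it. Either antagonist mRNA thus exceeded the summed TPM of all 19 ligands in each of the 4 libraries.

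Of 7 R-spondins and LGR receptors, 3 were kept, LGR4, LGR6 and RSPO2. LGR4, a receptor for R-spondins, was at 17.3 and 15.7 TPM after TGF-β1 and 18.1 and 18.1 TPM in controls. LGR6, a related receptor, was at 8.54 and 22.0 TPM after TGF-β1 and 10.2 and 11.7 TPM in controls. RSPO2, one of the R-spondins, had 11 and 19 counts against 8 and 14. The 11 transducers were all kept, with log2 fold changes led by DVL1 at 0.18 ± 0.18 (SE), and CTNNB1, which encodes β-catenin, was at 231 and 199 TPM against 238 and 200.04 TPM. CSNK1A1, a kinase that primes β-catenin for breakdown, was at 317 and 296 TPM against 303 and 319 TPM. Of 7 feedback targets of β-catenin, 5 were kept. ZNRF3, a relative of RNF43, was at 6.04 and 5.46 TPM after TGF-β1 and 5.17 and 5.56 TPM in controls. RNF43, which removes Frizzled receptors from the surface, was at 2.16 and 3.30 TPM against 3.30 and 3.01 TPM (log2 fold change -0.36 ± 0.20 SE, edgeR adjusted p = 1.00). AXIN2, the most used readout of β-catenin activity, had 8 and 19 counts after TGF-β1 and 4 and 7 counts in controls and did not pass the filter.

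**Figure D5:**
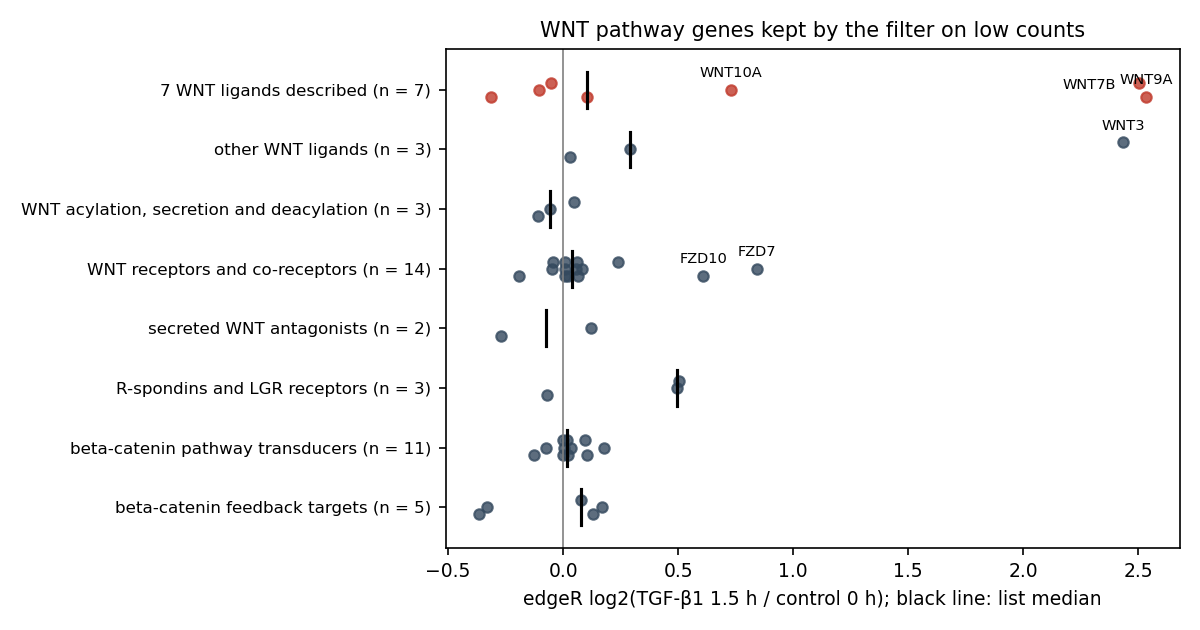
The edgeR log2 ratio of TGF-β1 at 1.5 h to control for each gene kept, by role in the WNT pathway, with the 7 described ligands in red, other genes in dark blue and black lines for list medians. WNT9A (2.54), WNT7B (2.50) and WNT3 (2.43) stand right of all other genes, and the list medians lie between -0.08 and 0.49.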

How the data were processed

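Per the labels' protocols, stranded libraries were made from ribosomal-RNA-depleted total RNA (the molecule field says polyA RNA) and read as paired ends. Per the submitters' processing notes, the authors used kallisto and the GRCh38 build; the kallisto version and transcript release were not given in the sources used here. Per the file headers, each deposited table holds estimated counts per transcript, where ambiguous reads are divided, and TPM values, which take transcript length into account.

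Of 173259 transcripts, 159239 (91.91%) matched GENCODE release 29 by identifier and were summed to 34500 genes. The rest held 2.24% to 2.38% of a library's counts and were not used. Estimated counts were rounded, and genes kept by filterByExpr (14774) were scaled by TMM and tested with edgeR 4.0.16 (R 4.3.3) over the 4 libraries, without covariates, with a Benjamini-Hochberg adjusted p under 0.05. A second edgeR fit tested the replicate number with treatment as covariate. SE is the log2 fold change divided by the root of F, an approximation. Alternatives were DESeq2 1.42.0, RLE scaling, other filters, a replicate block, each library left out, and limma 3.58.1 on log2(TPM + 1) and log2(TPM + 0.1). The edgeR fits were also run on simulated counts with the same spread set for every gene. The simulated treatment contrast held no difference between numbers, unlike these libraries, so that run does not show how the fit does here. Members and lists were chosen with earlier results of these data known. Text names the members, the other WNT genes by level, per pathway list the 2 highest genes and the largest fold change, kept genes within 100 kb of WNT9A, the 5 genes most like it, and SMAD7 and SKIL. The unkept neighbours of WNT9A, ROR1, ROR2, NOTUM and AXIN2 were added after their values were seen.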

Additional observations from a re-analysis of the deposited data

How the results depend on the processing

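In the comparison of TGF-β1 with control, edgeR called 0 genes (255 at an unadjusted p under 0.05), and 0 also with RLE scaling or at least 50 counts in 2 libraries. It called 15 without a filter, DESeq2 called 90, and leaving out 1 library gave 8 to 25 genes by edgeR and, by DESeq2, 67 and 62 without control replicates 1 and 2 and 46 and 71 without TGF-β1 replicates 1 and 2. With the replicate block edgeR called 335 genes (2.27% of those kept) and DESeq2 245. That edgeR fit called 2 of 7 members, WNT9A and WNT7B, and 2 pathway genes, FZD7 higher and DKK1 lower, where DESeq2 with the block called 0 pathway genes. The members were picked on the differences within each number that the block fit tests, so nothing is read from their calls. The labels do not say what a number marks, and 2 pairs are too few to settle it. Same-numbered libraries deviated together from their group means (r = 0.678 across 14774 genes, which are not independent replicates). DESeq2 with the block and DESeq2 without single libraries were added after seeing the data.

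The WNT9A log2 fold change lay between 2.03 and 2.54 in fits with all libraries and between 1.87 and 3.19 without 1 library. WNT7B gave 0.999 by limma on log2(TPM + 1), which shrinks low values, and 1.01 to 3.24 without 1 library. Between numbers 2 and 1, edgeR called 6635 genes and DESeq2 3513, and the cause was not tested. Leaving out a library there gave no value, since no residual degrees of freedom remain. WNT4, WNT5B, WNT10A, WNT7B outside TGF-β1 replicate 1, and WNT7A in the libraries numbered 2 rest on under 100 counts a library. This limits what can be seen in them.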
